A study of Mus musculus with 10 samples.

Results

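Wild-type mouse embryonic fibroblasts (MEFs) from 2 mouse families were set side by side: 3 MIDEAS+/+ libraries against 2 DNTTIP1+/+ libraries, 5 of the 10 libraries of the series. The genes were those with a mean of at least 10 normalized counts over these 5 libraries that lie outside chromosomes X and Y, which left 15515 of the 53801 genes of the table (28.8%). The choice of genes used only this mean level, not the difference between families. MIDEAS+/+ lines came from intercrosses of mice heterozygous for the MIDEAS-del1 deletion and DNTTIP1+/+ lines from intercrosses of mice heterozygous for the DNTTIP1-del1 deletion, both made in C57BL/6J zygotes (strain C57BL/6 in the labels), so the lines compared carried neither deletion. The other 5 libraries were homozygous knockouts of the same families, 3 MIDEAS-/- and 2 DNTTIP1-/-. Every library was an independent MEF line from an embryo of embryonic day 13.5, grown without treatment in serum-containing medium, and mRNA-enriched RNA was sequenced. No label places the wild-type embryos of the 2 families in a shared litter, culture or sequencing batch, so family cannot be told apart from any of these. The sex of the embryos is not given, and genes of X and Y were not used.

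MEFs are a mixed culture of mesenchymal cells from the embryo body, and the heads, livers and hearts had been removed here before culture. They secrete collagens and fibronectin, divide under serum, and keep the Hox code of the body position they came from, since each Hox gene is active from a given level of the body axis backwards. MIDEAS and DNTTIP1 are subunits of MiDAC, a histone deacetylase complex built around HDAC1 or HDAC2.

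Genes of mitosis and DNA replication stood lower in the MIDEAS+/+ lines in nearly every measured member. Promoters of mitotic genes carry CCAAT boxes, bound by the factor NF-Y, and the cell cycle genes homology region (CHR), bound by the DREAM and MMB complexes. The 250 bases before the start site are shown for 4 of them, to let the letters be read beside the values that follow. The sequences are RefSeq's on GRCm38.p6, written from 5′ to 3′ along the gene. Capitals mark CCAAT or its reverse complement ATTGG, and TTTGAA or its reverse complement TTCAAA for the CHR. Matches to the 2 motifs were counted without regard to overlap.
Ccnb2, chr9:70421555-70421804, minus strand: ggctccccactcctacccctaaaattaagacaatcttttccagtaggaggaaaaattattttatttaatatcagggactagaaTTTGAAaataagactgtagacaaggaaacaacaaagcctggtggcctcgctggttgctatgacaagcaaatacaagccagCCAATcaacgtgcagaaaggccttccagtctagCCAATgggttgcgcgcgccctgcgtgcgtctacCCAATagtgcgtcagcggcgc
Cdc20, chr4:118437344-118437593, minus strand: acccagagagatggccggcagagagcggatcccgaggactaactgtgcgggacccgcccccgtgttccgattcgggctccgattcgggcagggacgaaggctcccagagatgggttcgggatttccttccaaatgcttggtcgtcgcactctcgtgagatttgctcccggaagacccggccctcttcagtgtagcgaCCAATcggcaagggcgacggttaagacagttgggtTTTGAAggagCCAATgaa
Cdca8, chr4:124936918-124937167, minus strand: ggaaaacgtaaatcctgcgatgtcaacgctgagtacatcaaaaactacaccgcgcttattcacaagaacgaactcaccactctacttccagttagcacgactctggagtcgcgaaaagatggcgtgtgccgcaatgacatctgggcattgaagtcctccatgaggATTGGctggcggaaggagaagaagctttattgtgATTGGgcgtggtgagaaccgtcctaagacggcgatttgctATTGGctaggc
Birc5, chr11:117848987-117849236, plus strand: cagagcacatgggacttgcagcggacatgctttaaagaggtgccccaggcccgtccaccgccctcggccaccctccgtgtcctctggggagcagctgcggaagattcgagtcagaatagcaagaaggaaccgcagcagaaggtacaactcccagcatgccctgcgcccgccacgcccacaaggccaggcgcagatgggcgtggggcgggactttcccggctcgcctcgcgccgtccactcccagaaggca

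Of the 39 mitotic genes with a measurement, 31 had a RefSeq promoter. CCAAT or its complement lay in 24 of those 31 windows (77.4%), against 34.5% of all 27025 RefSeq promoters of that length. The CHR letters lay in 8 of 31 (25.8%), against 16.3% of all. Of 33 promoters of DNA replication genes, 19 held CCAAT (57.6%) and 5 the CHR letters (15.2%, below the share of all). Ccnb2 and Cdc20 held both motifs, Cdca8 only CCAAT and Birc5 neither. A match is a run of letters and shows no binding, and Birc5 was lower in MIDEAS+/+ without one.

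The levels of fibroblast markers in the 5 lines were compared first. Of 28 fibroblast markers, 27 passed the level filter, and only Tcf21 did not. All 18 macrophage and all 19 smooth muscle and myofibroblast genes listed passed it too, so passing alone does not identify fibroblasts. The summed level of the fibroblast markers was 142332, 120394 and 121118 normalized counts in MIDEAS+/+ libraries, against 139508 and 121934 in DNTTIP1+/+ libraries, so the groups overlapped. Col1a1, the main chain of type I collagen, had 14467, 12492 and 11494 normalized counts in MIDEAS+/+, against 13747 and 12567 in DNTTIP1+/+. The intermediate filament gene Vim had 4151, 4280 and 3674 in MIDEAS+/+, against 4014 and 4082 in DNTTIP1+/+. Among the 27, 25 overlapped between the families, and those that did not were Fn1 (fibronectin, higher in MIDEAS+/+) and Thy1 (a surface glycoprotein, lower). Pdgfra, the PDGF receptor alpha of mesenchymal progenitors, varied widely, with 1052, 208 and 1057 in MIDEAS+/+ and 2610 and 1049 in DNTTIP1+/+. The low value was that of MIDEAS+/+ replicate 2 alone.

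Per kilobase of exon, the mitochondrial transcript mt-Co2 (cytochrome oxidase subunit II) was the most abundant, with 127741, 154043 and 124798 normalized counts in MIDEAS+/+, against 175731 and 142590 in DNTTIP1+/+. Actg1, cytoplasmic gamma actin, was among the most abundant nuclear protein-coding genes. Several of the next places were pseudogenes of ribosomal proteins and copies of mitochondrial sequence, whose counts share reads with their parent genes and are uncertain. The median gene had a mean of 446 normalized counts over the 5 libraries, and 11397 of the 15515 genes reached 100.

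None of the 5 MiDAC subunits and paralogs measured reached an unadjusted p under 0.05 between the wild-type lines. Dnttip1 had 436, 436 and 434 normalized counts in MIDEAS+/+, against 434 and 443 in DNTTIP1+/+, a log2 difference of -0.01 ± 0.14 (SE). Elmsan1, the symbol of the MIDEAS gene, had 1272, 1332 and 1576 in MIDEAS+/+, against 973 and 1246 in DNTTIP1+/+ (log2 difference 0.33 ± 0.24). Hdac1 had 2134, 2060 and 1759 in MIDEAS+/+, against 2171 and 2115 in DNTTIP1+/+. In the knockouts Dnttip1 had 197 and 173 in DNTTIP1-/-, lower than in every wild-type line. Elmsan1 had 1038, 1728 and 1590 in MIDEAS-/- and overlapped MIDEAS+/+.

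The 5 wild-type libraries held 12339970, 13964009 and 17660995 reads (MIDEAS+/+) and 13039431 and 14326571 reads (DNTTIP1+/+), so 1 read was worth 0.782 to 1.114 normalized counts. Mitochondrial genes took 2.82 to 3.22% of the counts in MIDEAS+/+ and 3.10 to 4.01% in DNTTIP1+/+. The library that stood apart in the series was MIDEAS-/- replicate 1, with 6.60%. It is no wild-type line, but it entered the shared estimate of the spread, and results are therefore also given without it. No wild-type pair within a family looked like a library deposited more than once, since their chi-square per gene was 17.4 to 24.6, far above sampling noise. Pairs between families were not checked in this way.

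By the median difference per gene, lines of different families were farther apart than the 3 MIDEAS+/+ lines were from each other. They were not always farther apart than the DNTTIP1+/+ pair. The median absolute log2 difference per gene, a distance between a pair of libraries, was 0.255 to 0.358 over the 6 pairs between families. It was 0.205, 0.209 and 0.228 over the 3 pairs within MIDEAS+/+ and 0.264 for the pair within DNTTIP1+/+. The DNTTIP1+/+ pair was thus farther apart than 2 of the pairs between families, those of MIDEAS+/+ replicate 1. The most distant pair was MIDEAS+/+ replicate 2 and DNTTIP1+/+ replicate 1, with 2436 genes at least 2-fold apart (15.7%), against 1890 (12.2%) within DNTTIP1+/+. By this count the families were not set apart. The pair of MIDEAS+/+ replicate 3 and DNTTIP1+/+ replicate 2 had the fewest such genes, 1236, against 1315 to 1490 within MIDEAS+/+.

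**Figure D1:**
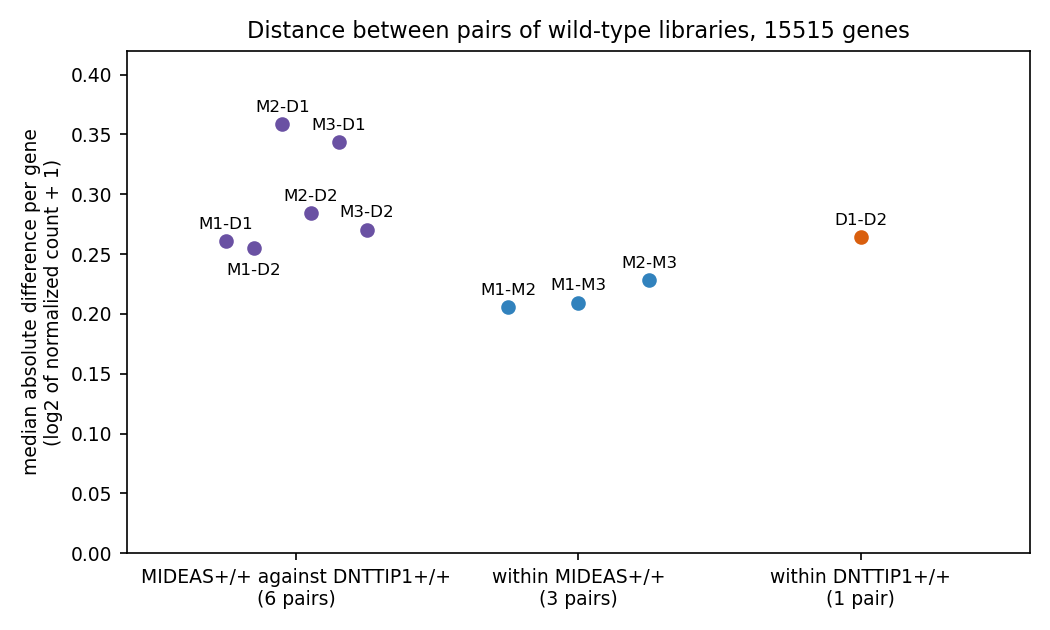
Median absolute log2 difference per gene between each pair of the 5 wild-type libraries (M for MIDEAS+/+, D for DNTTIP1+/+, with replicate numbers), over 15515 genes. The 6 pairs between families span 0.255 to 0.358, the 3 pairs within MIDEAS+/+ lie at 0.205 to 0.228, and the pair within DNTTIP1+/+ at 0.264 falls among the pairs between families.

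No single gene passed the test of the families. In limma's moderated test on log2(normalized count + 1) with Benjamini-Hochberg adjustment, fitted to all 10 libraries in 4 groups, 0 of 15515 genes (0.0%) had an adjusted p under 0.1, and the smallest adjusted p was 0.404. At an unadjusted p under 0.05, 1637 genes (10.6%) stood out, 1012 higher (6.52%) and 625 lower (4.03%) in MIDEAS+/+. edgeR's quasi-likelihood test on the recovered reads also called 0, and DESeq2 called 265 (1.71%), 134 of them higher and 131 lower. Without MIDEAS-/- replicate 1 the limma fit called 232 (1.5%), 192 higher and 40 lower, and 0 were called when the trend of transcript length was also removed. The values of the 3 MIDEAS+/+ libraries lay all above or all below the 2 DNTTIP1+/+ libraries for 5163 genes (33.3%), 2706 higher (17.4%) and 2457 lower (15.8%). These shares are the background for every count given for a gene group. Only 509 genes (3.28%) were both apart in this way and at least 2-fold different, 339 higher (2.18%) and 170 lower (1.1%) in MIDEAS+/+. Whatever the overlap, 870 genes (5.61%) had a fitted difference of 2-fold or more and 137 (0.883%) of 4-fold or more. Mki67, Cdkn1a, Tbx5, Pitx1, Col2a1, Runx2 and Acta2 are named below as well-known members of their groups whose values overlapped, chosen after their values were seen. Exons of Cdca8, Lig1, Idi1, Alx1, Col9a3, Itga8, Rb1cc1 and Hmx1 overlap another annotated transcript, and the use of strand in counting is not given in the sources used here. Fold changes here are MIDEAS+/+ minus DNTTIP1+/+ on the log2(normalized count + 1) scale, which understates the difference of low genes.

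Mitotic genes leaned lower in MIDEAS+/+ lines than in DNTTIP1+/+ lines, though none passed adjustment over all genes. Of 39 measured members, 37 had a negative log2 difference, 32 were lower with no overlap (background 15.8%), 22 were lower at an unadjusted p under 0.05 (background 4.03%) and none was higher. The median was -0.41, against 0.01 over all genes. In bulk RNA, fewer dividing cells and less of each transcript per cell cannot be told apart. Spc24, a subunit of the NDC80 complex that ties kinetochores to microtubules, had 369, 270 and 348 normalized counts in MIDEAS+/+, against 634 and 577 in DNTTIP1+/+. Every MIDEAS+/+ line was below both DNTTIP1+/+ lines, with a log2 difference of -0.89 ± 0.17. Ccnb2 (cyclin B2, a partner of CDK1) had 668, 573 and 632 in MIDEAS+/+, against 1041 and 860 in DNTTIP1+/+, a log2 difference of -0.60 ± 0.14. Birc5 and Cdca8 encode survivin and borealin, which hold Aurora B at the centromere. Birc5 had 556, 500 and 555 in MIDEAS+/+, against 762 and 798 in DNTTIP1+/+ (-0.54 ± 0.12). Cdca8 had 612, 602 and 598 in MIDEAS+/+, against 854 and 957 in DNTTIP1+/+ (-0.58 ± 0.13). For these genes the 3 MIDEAS+/+ lines lay close together and the gap to the DNTTIP1+/+ lines was wider than the range within either family. Cdc20, the activator of the anaphase-promoting complex, had 1178, 1071 and 1123 in MIDEAS+/+, against 1420 and 1612 in DNTTIP1+/+ (-0.43 ± 0.12); it was named after its values were seen. Mki67, the proliferation antigen Ki-67, was among the 7 that overlapped, with 2921, 2279 and 2687 in MIDEAS+/+, against 2633 and 2906 in DNTTIP1+/+.

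Genes of DNA replication and S phase showed the same direction. All 40 members had a negative difference, with a median of -0.39, 28 were lower in MIDEAS+/+ with no overlap and 16 were lower at an unadjusted p under 0.05. Gins1, a subunit of the GINS complex of the replicative helicase, had 160, 139 and 156 normalized counts in MIDEAS+/+, against 270 and 278 in DNTTIP1+/+ (-0.85 ± 0.20). Lig1, the ligase that joins Okazaki fragments, had 898, 724 and 875 in MIDEAS+/+, against 1313 and 1137 in DNTTIP1+/+ (-0.56 ± 0.15). Both genes were lower in each MIDEAS+/+ line than in either DNTTIP1+/+ line. H2afz, a histone variant gene named after its values were seen, had 2759, 2049 and 2844 in MIDEAS+/+, against 4191 and 4935 in DNTTIP1+/+ (-0.85 ± 0.17). The genes of replication-dependent histones did not share this direction: 15 of 18 measured members had a positive difference, with a median of 0.45. Their transcripts lack a poly(A) tail, and many histone genes are near-identical copies, so these values are uncertain. The p53 targets, which include brakes on the cycle, had 22 of 25 positive differences, and 5 were higher at an unadjusted p under 0.05, a count that was 3 without MIDEAS+/+ replicate 3 and 1 without either MIDEAS+/+ replicate 2 or DNTTIP1+/+ replicate 1. Trp53inp1, a p53 target that promotes cell death and autophagy, had 2368, 2052 and 2445 in MIDEAS+/+, against 1306 and 1261 in DNTTIP1+/+ (0.83 ± 0.14). Cdkn1a, the cyclin-dependent kinase inhibitor p21, overlapped, with 2966, 2962 and 2485 in MIDEAS+/+, against 2495 and 2828 in DNTTIP1+/+.

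The counts of cell cycle genes leaned on the DNTTIP1+/+ replicate 2 library. The median level of the mitotic list, as a log2 difference from the mean of the 5 libraries, was -0.14, -0.24 and -0.04 in MIDEAS+/+, against 0.15 and 0.34 in DNTTIP1+/+. Without DNTTIP1+/+ replicate 2, 9 of the 39 mitotic genes and 5 of the 40 replication genes were lower at an unadjusted p under 0.05. The median of the mitotic list stayed between -0.51 and -0.32 over all 27 alternative settings run. Without MIDEAS-/- replicate 1, 28 mitotic genes were lower at an unadjusted p under 0.05, and 4 of them were called. None was called once the trend of transcript length was also removed.

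The cholesterol synthesis genes were also lower in MIDEAS+/+, in 21 of 21 members by sign, with a median of -0.44. With no overlap, 14 were lower, and 5 were lower at an unadjusted p under 0.05. Pmvk, which phosphorylates mevalonate phosphate, had 432, 302 and 332 normalized counts in MIDEAS+/+, against 627 and 653 in DNTTIP1+/+ (-0.86 ± 0.20). Idi1, the isopentenyl diphosphate isomerase, had 2852, 1560 and 2877 in MIDEAS+/+, against 3674 and 4608 in DNTTIP1+/+ (-0.81 ± 0.36). MIDEAS+/+ replicate 2 was the lowest of the 5 for both. The list's level was 0.02, -0.52 and -0.03 in MIDEAS+/+, against 0.18 and 0.34 in DNTTIP1+/+, and without MIDEAS+/+ replicate 2 the median difference was -0.22 with 1 member at an unadjusted p under 0.05. That count was also 1 without either DNTTIP1+/+ library and 3 without MIDEAS-/- replicate 1.

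Hox genes leaned the other way. Of 39, 35 were measured, and Hoxb1, Hoxd1, Hoxd3 and Hoxd4 fell below the filter. Among the 35, 29 had a positive difference, 15 were higher in MIDEAS+/+ with no overlap (background 17.4%), 12 were higher at an unadjusted p under 0.05 (background 6.52%), and none was lower by either measure. The median was 0.50. Hoxa6 (chr6:52206288-52208722, GRCm38) had 121, 119 and 128 normalized counts in MIDEAS+/+, against 38.0 and 37.0 in DNTTIP1+/+, a log2 difference of 1.68 ± 0.44. Its neighbour Hoxa5 (chr6:52201754-52204587) had 573, 546 and 452 in MIDEAS+/+, against 244 and 301 in DNTTIP1+/+ (0.94 ± 0.23). Hoxc6 (chr15:102998257-103011881) had 673, 724 and 552 in MIDEAS+/+, against 410 and 425 in DNTTIP1+/+ (0.63 ± 0.16). In each of these the lowest MIDEAS+/+ line exceeded the highest DNTTIP1+/+ line.

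None of the measured Hox genes numbered 2, 12 or 13 was apart between the families. In the HoxA cluster Hoxa3, Hoxa4, Hoxa5 and Hoxa6 were higher in MIDEAS+/+ with no overlap, while Hoxa2 and Hoxa7 to Hoxa13 overlapped. Hoxb5 had 145, 182 and 94.7 normalized counts in MIDEAS+/+, against 39.0 and 82.9 in DNTTIP1+/+ (1.24 ± 0.41). Hoxd11, a gene of the limb and the lower trunk, had 310, 284 and 419 in MIDEAS+/+, against 234 and 125 in DNTTIP1+/+ (0.96 ± 0.33). Of the 6 measured Hox genes numbered 12 or 13, the DNTTIP1+/+ lines bracketed the MIDEAS+/+ lines in Hoxa13, Hoxb13, Hoxd12 and Hoxd13, and MIDEAS+/+ replicate 1 was far below the other 4 lines in Hoxc12 and Hoxc13. Hoxd13 had 1113, 792 and 1138 in MIDEAS+/+, against 1447 and 533 in DNTTIP1+/+. Hoxc13 had 6.69, 79.7 and 120 in MIDEAS+/+, against 69.6 and 79.0 in DNTTIP1+/+, the low value being that of MIDEAS+/+ replicate 1. Without MIDEAS+/+ replicate 2, 7 Hox genes were higher at an unadjusted p under 0.05. Hoxa3, Hoxa4 and Hoxb5 overlap antisense transcripts while Hoxc5 and Hoxc10 share exons on the same strand, so their reads cannot be told apart.

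**Figure D2:**
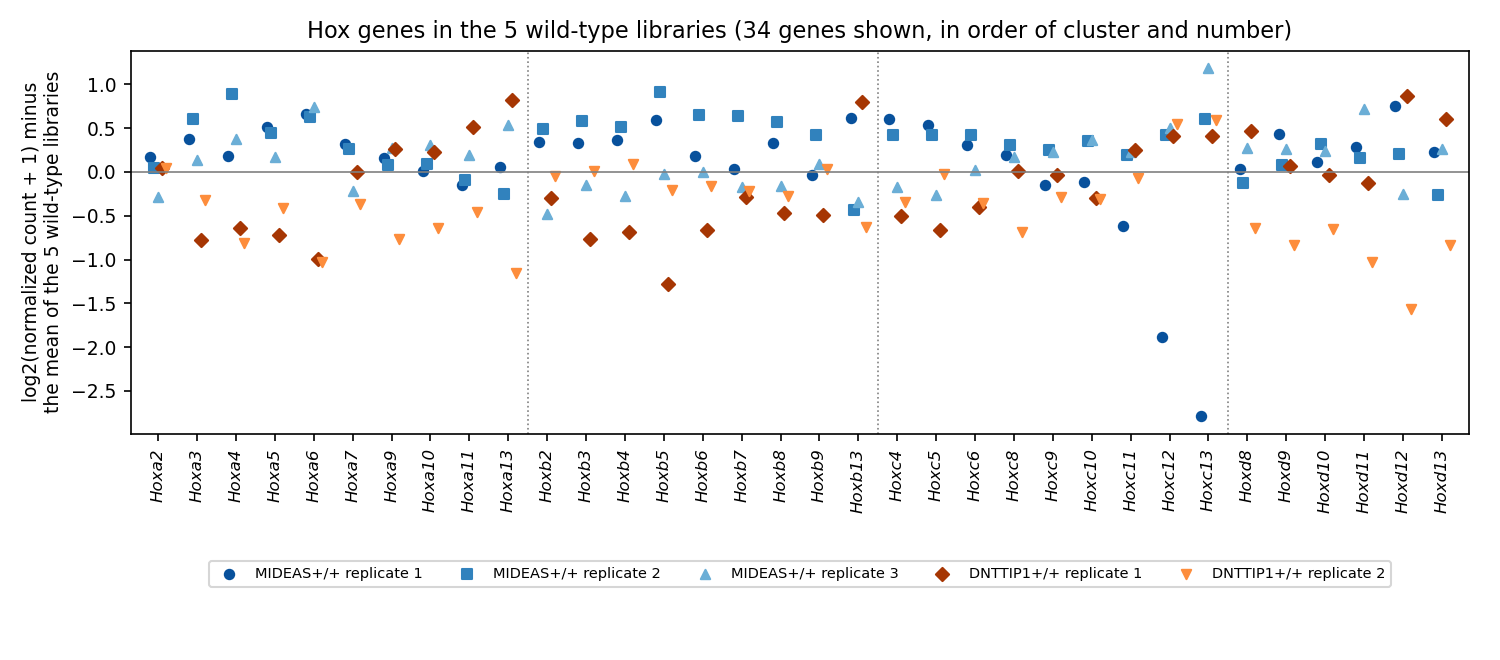
Level of 34 of the 35 measured Hox genes in the 5 wild-type libraries, as log2(normalized count + 1) minus the mean of the 5, in the order of the 4 clusters (dotted lines separate them). Blue symbols (MIDEAS+/+) lie above brown and orange symbols (DNTTIP1+/+) for Hoxa3 to Hoxa6 and Hoxb5, and single libraries stand apart at the ends, as for Hoxc13 in MIDEAS+/+ replicate 1 (6.69 normalized counts).

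The positional transcription factors outside the Hox clusters that stood out at an unadjusted p under 0.05 were all lower in MIDEAS+/+. Of 66 factors, 64 were measured. With no overlap, 5 were higher in MIDEAS+/+ (7.81%, background 17.4%) and 11 lower (17.2%, background 15.8%). The lower count was thus near the background. At an unadjusted p under 0.05, 7 were lower (10.9%, background 4.03%) and 0 higher. The median was -0.05. The count of 7 became 3 with MIDEAS+/+ replicate 2 left out, and 11 with MIDEAS+/+ replicate 3 left out. The 7 were Alx1, Msx1, Dlx1, Dlx2, Dlx6, Six2 and Foxf2, several of which are known for patterning the jaws and the midface. Dlx6 had 10.0, 4.09 and 3.13 normalized counts in MIDEAS+/+, against 47.5 and 37.0 in DNTTIP1+/+ (-2.81 ± 0.56). Dlx1 had 11.1, 6.13 and 7.82 in MIDEAS+/+, against 45.3 and 91.6 in DNTTIP1+/+ (-2.84 ± 0.73). Alx1, a factor of the frontonasal mesenchyme, had 83.6, 33.7 and 56.3 in MIDEAS+/+, against 181 and 171 in DNTTIP1+/+ (-1.68 ± 0.47). All 3 MIDEAS+/+ lines were low for each. The exons of Dlx1 and Dlx6 overlap antisense transcripts. The limb factors Tbx5 and Pitx1 overlapped between the families. Tbx5, which marks the forelimb, had 464, 270 and 358 in MIDEAS+/+, against 380 and 205 in DNTTIP1+/+. Pitx1, which marks the hindlimb, had 664, 504 and 963 in MIDEAS+/+, against 865 and 641 in DNTTIP1+/+.

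Genes of cartilage and bone leaned lower in MIDEAS+/+. Of 30, 22 were measured, 9 were lower and 1 higher with no overlap, 9 were lower at an unadjusted p under 0.05 and the median was -0.67. Col9a2, a chain of cartilage collagen IX, had 63.5, 28.6 and 72.0 normalized counts in MIDEAS+/+, against 209 and 209 in DNTTIP1+/+ (-2.02 ± 0.37). For Col9a2 the order in the knockouts was the opposite, with 575, 486 and 387 in MIDEAS-/-, against 256 and 376 in DNTTIP1-/-. The list as a whole kept its direction there, with a median of -0.47 and 15 of 22 negative. With no overlap, 7 were lower in MIDEAS-/- (31.8%, background 11.6%) and 2 higher. Col9a3, the partner of Col9a2, had 24.5, 21.5 and 21.9 in MIDEAS+/+, against 61.2 and 250 in DNTTIP1+/+ (-2.40 ± 0.61). Alpl, the alkaline phosphatase of bone-forming cells, had 0, 2.04 and 9.39 in MIDEAS+/+, against 19 and 40.0 in DNTTIP1+/+. The summed level of the list was 15878, 14236 and 16820 in MIDEAS+/+, against 16840 and 17967 in DNTTIP1+/+. Abundant members overlapped between the families in several cases. Col2a1, the main cartilage collagen, had 2208, 2723 and 3426 in MIDEAS+/+, against 2694 and 5023 in DNTTIP1+/+. Runx2, the factor that commits cells to bone, had 913, 830 and 938 in MIDEAS+/+, against 826 and 855 in DNTTIP1+/+. Acan, the cartilage proteoglycan aggrecan, had a wide range within MIDEAS+/+, at 501, 26.6 and 526, against 348 and 665 in DNTTIP1+/+.

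**Figure D3:**
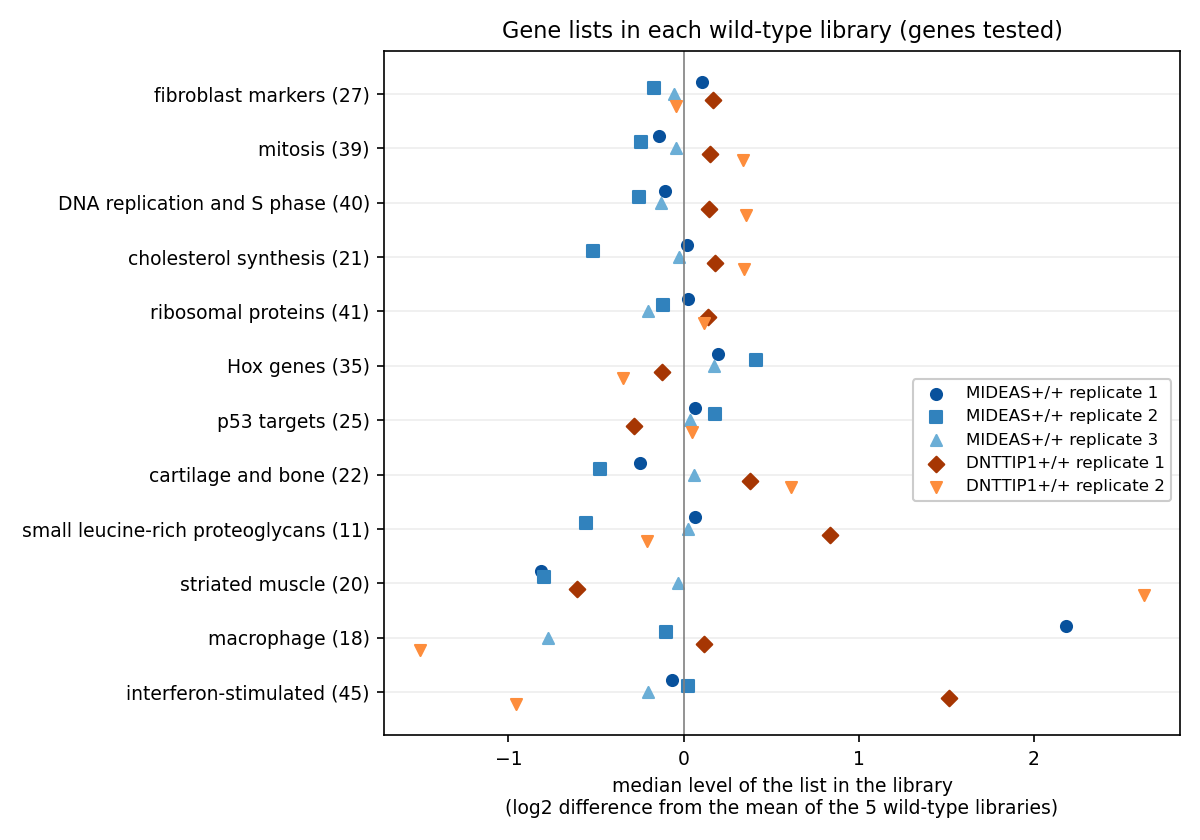
Median level of 12 gene lists in each wild-type library, as the log2 difference from the mean of the 5 libraries, with the number of measured genes in brackets. For mitosis, DNA replication and Hox genes the 3 blue MIDEAS+/+ symbols lie on 1 side of the DNTTIP1+/+ symbols. For striated muscle and macrophage genes 1 line stands highest by far. For interferon-stimulated genes the 2 DNTTIP1+/+ lines stand on opposite sides of the MIDEAS+/+ lines, at 1.51 and -0.95.

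Traces of macrophages and striated muscle were high in single lines. The macrophage list had a summed level of 8592, 2085 and 1267 normalized counts in MIDEAS+/+, against 2260 and 754 in DNTTIP1+/+. Mrc1, the mannose receptor, had 499, 23.5 and 23.5 in MIDEAS+/+, against 19 and 15.6 in DNTTIP1+/+. Csf1r, the receptor macrophages need to survive, had 633, 151 and 129 in MIDEAS+/+, against 148 and 72.1 in DNTTIP1+/+. Among the wild-type lines MIDEAS+/+ replicate 1 carried the excess, and 0 of the 18 macrophage genes reached an unadjusted p under 0.05. In the knockouts 18 of 18 were higher in MIDEAS-/- by sign, 9 of them with no overlap (background 10.5%). Their sums overlapped there, at 1780, 1075 and 2869 in MIDEAS-/-, against 1131 and 352 in DNTTIP1-/-. The 20 measured striated muscle genes summed to 995, 2314 and 1335 in MIDEAS+/+, against 1086 and 4592 in DNTTIP1+/+, high in DNTTIP1+/+ replicate 2. Myh3, the embryonic myosin heavy chain, had 2.23, 4.09 and 23.5 in MIDEAS+/+, against 6.33 and 383 in DNTTIP1+/+. The median difference of the muscle list was -1.72, but it was -3.41 without DNTTIP1+/+ replicate 1 and 0.01 without DNTTIP1+/+ replicate 2. Of 12 erythroid markers none passed the level filter, whereas 10 of 16 endothelial and 18 of 28 epithelial and keratinocyte genes did. The endothelial genes summed to 2010, 2287 and 2878 normalized counts in MIDEAS+/+, against 2171 and 2181 in DNTTIP1+/+, with the defining markers Pecam1 and Cdh5 below the filter. The epithelial and keratinocyte genes summed to 4425, 7057 and 6179 in MIDEAS+/+, against 4048 and 6782 in DNTTIP1+/+, with Epcam, Krt5 and Krt14 below the filter. Both sums overlapped between the families. The part of these cell types in the family differences was not tested.

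The antiviral program differed between the lines of the DNTTIP1+/+ family. Interferon-stimulated genes, which cells switch on when they sense interferon, had a median level of -0.06, 0.03 and -0.20 in MIDEAS+/+, against 1.51 and -0.95 in DNTTIP1+/+, as log2 differences from the mean of the 5 libraries. In 44 of the 45 genes DNTTIP1+/+ replicate 1 was above replicate 2. Ifit1, an antiviral RNA-binding protein, had 94.7, 128 and 88.4 normalized counts in MIDEAS+/+, against 408 and 17.5 in DNTTIP1+/+. Oas1a, a sensor of double-stranded RNA, had 34.5, 27.6 and 40.7 in MIDEAS+/+, against 229 and 9.75 in DNTTIP1+/+. The MIDEAS+/+ lines lay between the DNTTIP1+/+ lines for each, so the groups overlapped. Small leucine-rich proteoglycans of the matrix followed the same library, with DNTTIP1+/+ replicate 1 above replicate 2 in 11 of 11. Lum, which encodes lumican, had 490, 96.1 and 304 in MIDEAS+/+, against 1332 and 305 in DNTTIP1+/+.

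Growth factor genes were near the background as a group. Of 43 genes of FGF, EGF, PDGF and VEGF signalling 3 were higher in MIDEAS+/+ at an unadjusted p under 0.05 (6.98%, background 6.52%) and 0 lower. Of 63 axon guidance genes 7 were higher (11.1%) and 1 lower, with a median of 0.17 that was 0.04 with the trend of transcript length removed. Fgf2, a fibroblast mitogen, had 1174, 1853 and 1206 normalized counts in MIDEAS+/+, against 752 and 860 in DNTTIP1+/+ (0.78 ± 0.21). Egfr, the EGF receptor, had 2730, 2467 and 2337 in MIDEAS+/+, against 1975 and 1743 in DNTTIP1+/+ (0.43 ± 0.12). Epha7, a receptor for ephrins, had 871, 660 and 630 in MIDEAS+/+, against 388 and 395 in DNTTIP1+/+ (0.86 ± 0.18). All 3 genes were higher in every MIDEAS+/+ line. Fgf2 exons overlap Nudt6 on the other strand. Of 22 YAP and TEAD targets 5 were higher (22.7%, background 6.52%) and 1 lower (4.55%, background 4.03%). Without DNTTIP1+/+ replicate 1 the higher counts were 4 for axon guidance and 1 for YAP and TEAD targets, which had 2 higher with MIDEAS+/+ replicate 2 left out. Without MIDEAS+/+ replicate 1, 5 of the growth factor genes were higher. Of 19 smooth muscle and myofibroblast genes 3 were higher (15.8%, background 6.52%). Among them was the integrin gene Itga8, with 942, 1125 and 1117 in MIDEAS+/+, against 670 and 732 in DNTTIP1+/+ (0.59 ± 0.15). Acta2, smooth muscle actin, overlapped at 3535, 3836 and 2895 in MIDEAS+/+, against 3348 and 3447 in DNTTIP1+/+.

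Secreted antagonists and imprinted genes gave single large differences. Of 63 Wnt genes 4 were higher (6.35%, background 6.52%) and 5 lower (7.94%, background 4.03%) at an unadjusted p under 0.05, with a median of 0.01. The higher count was thus at the background. With MIDEAS-/- replicate 1 left out 7 were higher, and with MIDEAS+/+ replicate 3 left out 2 were. With DNTTIP1+/+ replicate 1 left out 2 were lower, and 3 were when either MIDEAS+/+ replicate 1 or DNTTIP1+/+ replicate 2 was left out. Sfrp2, a secreted Wnt modulator, had 202, 241 and 590 normalized counts in MIDEAS+/+, against 1506 and 635 in DNTTIP1+/+ (-1.67 ± 0.48). Tgfbi, a matrix protein induced by TGF-beta, had 1056, 429 and 943 in MIDEAS+/+, against 1766 and 1722 in DNTTIP1+/+ (-1.21 ± 0.33). Of 34 imprinted genes 6 were higher (17.6%) and 1 lower (2.94%), and 1 was higher without DNTTIP1+/+ replicate 1. Zim1, an imprinted zinc finger gene, had 981, 595 and 603 in MIDEAS+/+, against 297 and 426 in DNTTIP1+/+ (0.99 ± 0.28). Its neighbour Peg3 had 5586, 4744 and 4940 in MIDEAS+/+, against 2822 and 3889 in DNTTIP1+/+ (0.62 ± 0.23). Dlk1, an imprinted membrane protein of the Notch ligand kind, was the lower one, with 1607, 969 and 1415 in MIDEAS+/+, against 2161 and 1825 in DNTTIP1+/+ (-0.61 ± 0.23).

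Of the genes with the smallest unadjusted p, named after their values were seen, Tnfaip6 led. Tnfaip6 (chr2:52038009-52056686), a hyaluronan-binding protein secreted in inflammation, had 168, 156 and 186 normalized counts in MIDEAS+/+, against 359 and 371 in DNTTIP1+/+ (-1.10 ± 0.17). Rb1cc1, a scaffold that starts autophagy, had 2816, 2861 and 2506 in MIDEAS+/+, against 1663 and 1744 in DNTTIP1+/+ (0.68 ± 0.11). Nfat5, the transcription factor of osmotic stress, had 3222, 3222 and 3331 in MIDEAS+/+, against 1396 and 1664 in DNTTIP1+/+ (1.10 ± 0.21). In all of them both families were tight and well apart. DESeq2, the fit without MIDEAS-/- replicate 1 and the fit with the replicate number as a block (102 genes, 0.657%) shared 32 called genes, 19 higher and 13 lower in MIDEAS+/+. Ccnb2, Spc24, H2afz, Hoxa5, Dlx6, Col9a2, Tnfaip6, Rb1cc1, Nfat5 and Trp53inp1 were among these 32. Only fits that called genes were intersected. The count was 0 in limma and in edgeR with all libraries, and in limma with the length trend removed. The intersected fits used the same wild-type libraries, so their shared calls are not independent support for these genes.

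Transcript length moved with the family difference. Protein-coding genes with over 12000 bases of exon (780 genes) had a median level of 0.07, 0.18 and 0.19 in MIDEAS+/+, against -0.27 and -0.12 in DNTTIP1+/+. Genes with under 1000 bases (284 genes) had -0.003, -0.013 and -0.198 in MIDEAS+/+, against 0.162 and 0.078 in DNTTIP1+/+. The median family difference was 0.34 for the longest class and -0.18 for the shortest. MIDEAS-/- replicate 1 sloped down with length as DNTTIP1+/+ replicate 1 did, with -0.257 for the longest and 0.120 for the shortest. MIDEAS-/- replicate 2 sloped up, with 0.230 for the longest and -0.399 for the shortest. Genes called without MIDEAS-/- replicate 1 and higher in MIDEAS+/+ had a median of 11420 exon bases, and those lower 1554, against 3977 over all genes. Removing the length trend left the group medians of mitosis (-0.42), DNA replication (-0.43), cholesterol synthesis (-0.45) and Hox genes (0.62) near their values, cut Rb1cc1 to 0.35 and Nfat5 to 0.70, and gave -0.14 for the 41 ribosomal protein genes, against -0.23 before.

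**Figure D4:**
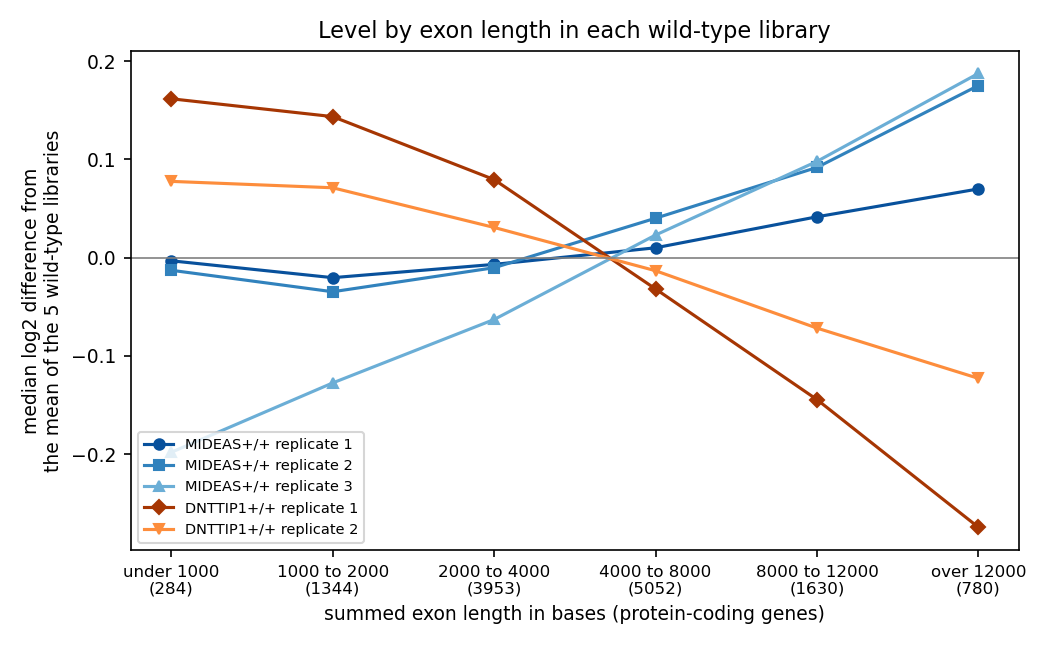
Median log2 difference from the mean of the 5 wild-type libraries for protein-coding genes in 6 classes of summed exon length (bases, number of genes in brackets), 1 line per library. DNTTIP1+/+ libraries slope down with length to -0.27 and -0.12 in the longest class, and MIDEAS+/+ libraries slope up to 0.07, 0.18 and 0.19.

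The 5 knockout libraries gave a comparison of the same families that shared no library with the wild-type one. Between MIDEAS-/- and DNTTIP1-/- libraries 0 genes (0.0%) were called by limma, 0 by edgeR and 124 by DESeq2, and 1076 (6.94%) had an unadjusted p under 0.05. Of the 1637 genes with an unadjusted p under 0.05 in wild type, 1299 (79.4%) had the same direction in the knockouts, against 61.6% of all genes. Mitotic genes were lower in MIDEAS-/- than in DNTTIP1-/- in 39 of 39 by sign and 34 with no overlap (background 11.6%), with a median of -0.54. Replication genes were lower in 40 of 40 by sign and 30 with no overlap, with a median of -0.49, and cholesterol genes in 21 of 21 by sign and 4 with no overlap. In an alternative chosen after seeing the data, MIDEAS-/- replicate 1 was left out and the values described without a test. By sign, 39 of 39 mitotic, 40 of 40 replication and 21 of 21 cholesterol genes were then lower, with medians of -0.39, -0.36 and -0.32, and 35, 33 and 4 of them did not overlap (background 21.9%). The share with the direction of wild type was 88.8% of the 1637 genes, against 69.3% of all. Ccnb2 had 731, 656 and 746 normalized counts in MIDEAS-/-, against 1042 and 943 in DNTTIP1-/-. Trp53inp1 had 2204, 2427 and 2958 in MIDEAS-/-, against 1662 and 1526 in DNTTIP1-/-. These 2 genes kept the direction and the gap of the wild-type lines. Each deletion, however, also differs between these groups, so family and genotype cannot be told apart there. The labels do not say whether knockout and wild-type lines of a family shared a litter or culture. The difference between the DNTTIP1-/- replicates had the direction of that between the DNTTIP1+/+ replicates in 75.0% of genes. It did so in 34 of 39 mitotic and 35 of 40 replication genes. The knockout comparison is therefore not known to be independent of the wild-type one. For scale, the same fit called 806 genes (5.19%) between MIDEAS-/- and MIDEAS+/+ and 5 (0.0322%) between DNTTIP1-/- and DNTTIP1+/+.

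Hox genes had a median of -0.09 in the knockout comparison, with 1 gene higher and 6 lower with no overlap, and of -0.12 without MIDEAS-/- replicate 1. Hoxa5 had 598, 485 and 370 normalized counts in MIDEAS-/-, against 401 and 569 in DNTTIP1-/-, and Hoxa6 had 60.9, 182 and 67.3 in MIDEAS-/-, against 85.5 and 121 in DNTTIP1-/-. Both overlapped. Hmx1, a homeobox gene named after its values were seen, stood in opposite order in the 2 comparisons. It had 2.23, 3.07 and 5.48 in MIDEAS+/+, against 27.4 and 62.4 in DNTTIP1+/+, but 51.6, 106 and 38.6 in MIDEAS-/-, against 4.12 and 8.75 in DNTTIP1-/-. The difference between the 2 family differences, an interaction term in the same limma fit, passed adjustment for 0 of 15515 genes (0.0%), with 431 (2.78%) at an unadjusted p under 0.05. edgeR called 0 and DESeq2 12. The interaction of Hmx1 had an adjusted p of 0.419 in limma, so a change of the family difference with genotype was not shown for it. Col9a2, also in opposite order without overlap, had an adjusted p of 0.991. Of the 32 genes shared by the 3 fits above, 27 had the same direction in the knockouts. The background is 79.4% of the 1637 genes with an unadjusted p under 0.05 in wild type. The same direction did not always come with the same fitted size. Unlike Ccnb2 and Trp53inp1, Rb1cc1 went from 0.68 in wild type to 0.04 and Nfat5 from 1.10 to 0.28. Both overlapped in the knockouts. Rb1cc1 and Nfat5 had been named for a small unadjusted p in wild type. The interaction of each had an adjusted p of 0.991 in limma, so a change of size was not shown for them.

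**Figure D5:**
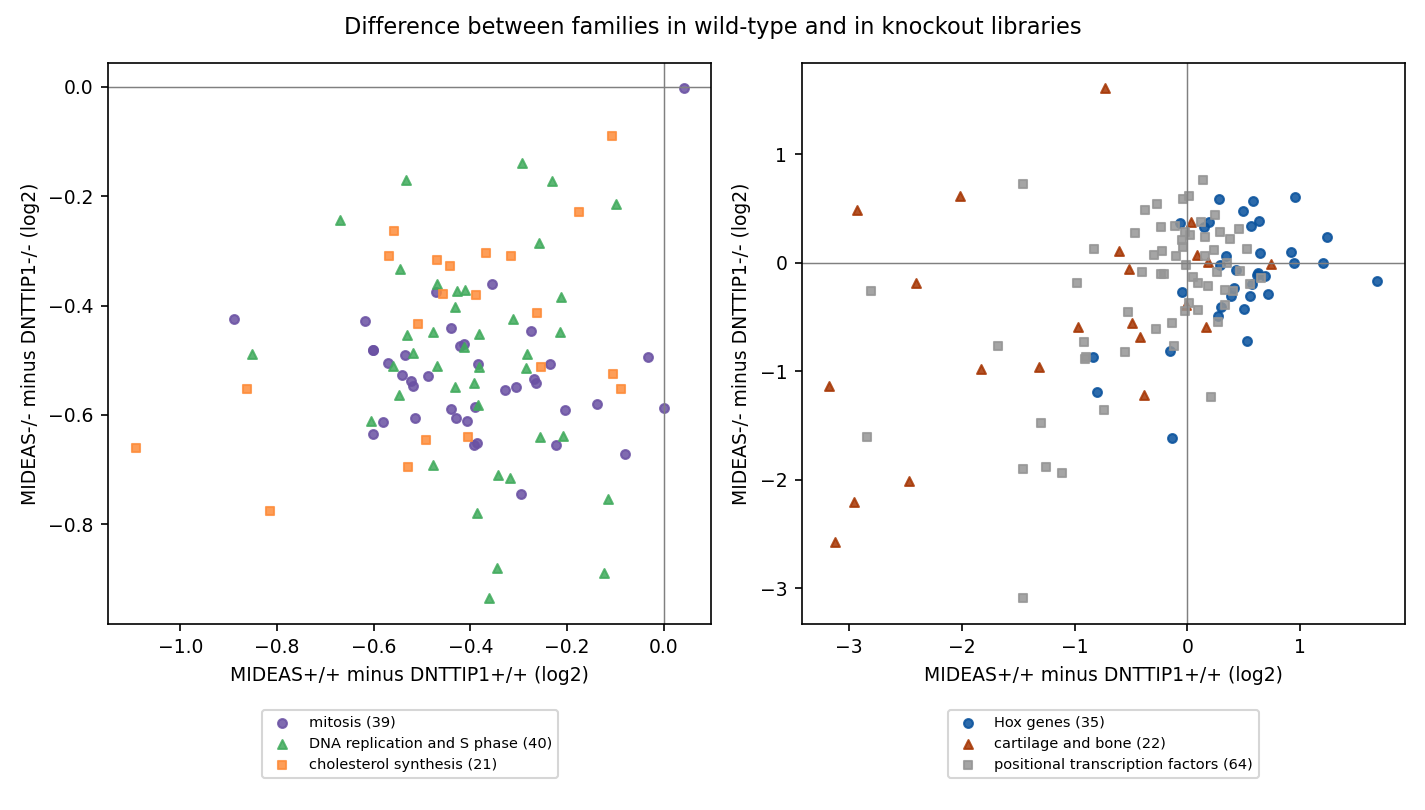
Family difference in knockout libraries (MIDEAS-/- minus DNTTIP1-/-, log2, vertical) against that in wild-type libraries (MIDEAS+/+ minus DNTTIP1+/+, log2, horizontal), 1 point per gene, number of genes in brackets. Mitosis, replication and cholesterol genes (left) nearly all fall in the lower left corner, with medians of -0.54, -0.49 and -0.41 in the knockouts, whereas Hox genes (right) are mostly positive in wild type and spread around 0 in the knockouts (median -0.09).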

How the data were processed

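Each library was total RNA from an independent MEF line, enriched for mRNA and sequenced on an Illumina instrument. Per the submitters' processing notes and the methods, the authors trimmed reads with Trim Galore 0.4.5 and cutadapt 1.11, aligned them with STAR 2.5.2b to mm10, removed duplicates with Picard, handled files with SAMtools 1.3.2 and normalized with DESeq2; no source used here names the counter, its annotation or its strand setting. The deposited signal is a normalized count per gene, that is, reads divided by 1 size factor per library. All values were whole multiples of 1 read in every library (100% within a tolerance of 0.01), so whole reads were recovered for count tests; totals over the 10 libraries are in reads after duplicate removal and their number limits the precision of low genes. The deposited comparison tables, with the authors' fold changes and p-values for knockouts against wild type, were not used.

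Genes were placed with GENCODE vM21 on GRCm38, the authors' build. Genes with a wild-type mean of at least 10 were kept (16115), less 590 on X or Y and 10 without a place. limma 3.58.1 (trend, robust; R 4.3.3) was run on log2(value + 1) with 4 groups, 6 residual degrees of freedom and an adjusted p threshold of 0.1. edgeR 4.0.16 and DESeq2 1.42.0 on recovered reads, other pseudocounts, filters, size factors and leaving out each library were alternatives. On simulated counts for MIDEAS+/+ against DNTTIP1+/+ (15515 genes), limma recovered 54% of genes changed by 1 and 84% of those changed by 2 on the log2 scale. Fold changes carry the standard error of the fit. The genes and lists were chosen with earlier results of these data known. Named genes were all Hox genes, MiDAC subunits and fibroblast markers, up to 5 members of each other list with the smallest unadjusted p, the 15 most abundant per kilobase, the 10 with the largest range within each wild-type group, and others said to be chosen after their values were seen. Promoters were RefSeq's (GRCm38.p6). Figures were drawn with matplotlib 3.10.9. Some genes are not reported here by name.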

Additional observations from a re-analysis of the deposited data

How the results depend on the processing

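The count of genes called between the wild-type families, 0 in limma with all 10 libraries, depended on the setting. It was 265 (134 higher and 131 lower in MIDEAS+/+) with DESeq2 and ranged from 0 to 232 when 1 library was left out (0 to 192 higher, 0 to 40 lower), with 232 reached only without MIDEAS-/- replicate 1. Settings added after seeing the data gave 102 (77 higher, 25 lower) with edgeR and 1021 (680 higher, 341 lower) with DESeq2, each without MIDEAS-/- replicate 1, and 0 with the length trend removed, with or without that library. DESeq2 and limma without MIDEAS-/- replicate 1 shared 98 genes, 37.0% of the first list and 42.2% of the second. With the replicate number as a block, 102 genes were called (67 higher, 35 lower). The wild-type groups share numbers 1 and 2 only, same-numbered libraries had deviations correlated at 0.374 and 0.251, and nothing states that a number marks a shared litter or day, so the pairs share only a number. Between the knockout families, 0 called in limma, the count was 1 without a filter on low values, 4 without trend and robust fitting, 124 with DESeq2, 2 with the length trend removed and 212 with DESeq2 without MIDEAS-/- replicate 1. For the difference between the family differences, also 0, it was 12 with DESeq2, 3 with the replicate block and 10 with DESeq2 without MIDEAS-/- replicate 1. The comparisons of knockouts with their own wild type, run only for the shared fit, moved more. MIDEAS-/- against MIDEAS+/+ called 806, 512 without trend and robust fitting, 394 at a threshold of 0.05, 1535 with DESeq2, 1970 with the replicate block, 1324 with DESeq2 without MIDEAS-/- replicate 1 and 218 to 882 when 1 library was left out. DNTTIP1-/- against DNTTIP1+/+ called 5, 8 without a filter, 0 at a threshold of 0.05, 200 with DESeq2, 95 with the replicate block, 418 with DESeq2 without MIDEAS-/- replicate 1 and 0 to 4 when 1 library was left out. The distance within the DNTTIP1+/+ pair was 0.264 and fell to 0.219 with a minimum mean of 50. The cause of these changes was not tested. Of the values for single named genes, 8584 stayed on the same side of the threshold and 264 passed it. The sign of the difference turned under at least 1 alternative in 54 of 329 named genes, among them Cldn4, Ifit1, Oas1a, Hoxd13 and Acan, and 0 of the 54 had an unadjusted p under 0.05 in limma with all libraries. At 2 and 3 libraries a group, a difference of a gene near 10 normalized counts rests on about 10 reads a library.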

Other observations

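The DNTTIP1 family showed a pattern that followed the replicate number in both genotypes. The difference of DNTTIP1-/- replicate 2 minus replicate 1 had the same direction as that of DNTTIP1+/+ replicate 2 minus replicate 1 in 75.0% of 15515 genes and in 1657 of the 1890 genes (87.7%) at least 2-fold apart between the DNTTIP1+/+ libraries. These differences share no library, and their correlation across genes was 0.629, given as a description since genes are not independent replicates. Interferon-stimulated genes were higher in replicate 1 in 45 of 45 in DNTTIP1-/- and 44 of 45 in DNTTIP1+/+, with median differences of replicate 2 minus replicate 1 of -2.48 in DNTTIP1-/- and -2.39 in DNTTIP1+/+. Ifit1 had 466 and 24.1 normalized counts in DNTTIP1-/- and 408 and 17.5 in DNTTIP1+/+. Macrophage genes were higher in replicate 1 in 18 of 18 in each genotype. Striated muscle genes went the other way, with replicate 1 higher in 0 of 20 in each genotype, and Myh3 had 2.06 and 1022 in DNTTIP1-/- against 6.33 and 383 in DNTTIP1+/+. Cholesterol synthesis genes did not follow the pattern, with replicate 1 higher in 21 of 21 in DNTTIP1-/- and 3 of 21 in DNTTIP1+/+. In the MIDEAS family the deviations of same-numbered MIDEAS-/- and MIDEAS+/+ libraries correlated at 0.219, -0.101 and -0.044. Whether equal numbers mark equal litters was not tested and is not given in the labels.

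Within the MIDEAS+/+ lines, the genes with the largest range were set by different libraries. Cldn4, a tight junction gene of epithelia, had 17.8, 278 and 38.3 normalized counts in MIDEAS+/+, against 2.11 and 117 in DNTTIP1+/+. Lce1h, a gene of the cornified skin envelope, had 6.69, 202 and 36 in MIDEAS+/+, against 14.8 and 122 in DNTTIP1+/+, and was high in the same libraries as Cldn4. Fcrls, a receptor gene known from mouse microglia, had 699, 89.9 and 36 in MIDEAS+/+, against 50.6 and 38.0 in DNTTIP1+/+, high in the library that also had the macrophage genes. The mesothelial genes Upk3b and Upk1b were high in MIDEAS+/+ replicate 3 among its group, with 63.5, 94.0 and 367 for Upk3b in MIDEAS+/+, against 381 and 365 in DNTTIP1+/+. Gvin1, which has near-identical copies and is therefore uncertain, had 649, 3264 and 399 in MIDEAS+/+, against 341 and 120 in DNTTIP1+/+; it was chosen after its values were seen.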
